A study of Homo sapiens with 16 samples.

Results

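The mRNAs described here code for the protein core of the spliceosome and for the related LSM proteins. They were taken by name from the deposited expression table: protein-coding genes whose symbol has no hyphen and starts with SNRP, SF3A, SF3B, PRPF, or LSM followed by a digit. This gave 47 of the 24878 genes with a value. The study profiled RNA from HEK293T cells, a human embryonic kidney line given as wild type, in 16 libraries. Cells carried the esterase BS2 with a localization tag, were treated with the probe AC-2, and the RNA that the probe had labelled was coupled to biotin and enriched, so that each tag asks which RNAs are labelled around that compartment. The 12 enriched samples, called pull-downs here, came from non-transfected cells (n = 3) and from cells transfected with cytoplasmic BS2 (n = 2), nuclear BS2 (n = 3), mitochondrial BS2 (n = 2) and NIK3x-BS2, the nucleolar form (n = 2). A further 4 libraries were inputs, 1 each from non-transfected, cytoplasmic, nuclear and mitochondrial BS2 cells, and no nucleolar input was used here. Every group, the non-transfected controls included, received AC-2 at 50 µM for 3 min, quenched with PMSF at 1 mM. Transfection was transient, with a lipid reagent, and AC-2 was added 24 h later. Each comparison of BS2 cells with non-transfected cells therefore holds transfection and the enzyme together, and their parts cannot be told apart. The replicates are labelled biological, but no separate cultures are named, so the p-values measure the spread between these samples, which may be technical.

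The spliceosome removes introns from pre-mRNA and is built from small nuclear ribonucleoproteins (snRNPs). The Sm proteins form a ring on the U1, U2, U4 and U5 snRNAs, while the LSM2 to LSM8 proteins form a related ring on U6, and the same ring with LSM1 in place of LSM8 acts in the cytoplasm in mRNA decapping. The SF3A and SF3B complexes belong to the U2 snRNP, which recognises the branch point, and the PRPF proteins include parts of the tri-snRNP and factors that act around activation and catalysis. All of these proteins are made in the cytoplasm from ordinary polyadenylated mRNAs, so what was measured is where and how strongly those mRNAs were labelled, not where the proteins are.

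The core promoters of 3 members are shown because these mRNAs moved in opposite directions in the pull-downs described below (SF3B5 and LSM10 were lower, PRPF38B was higher), have 1 listed start in the promoter table, and have a promoter window that lies outside the annotated gene. Each line gives the 250 bases before the start, 5′ to 3′ on the gene's strand, from RefSeq on GRCh38.p14, with motif letters in capitals.
LSM10: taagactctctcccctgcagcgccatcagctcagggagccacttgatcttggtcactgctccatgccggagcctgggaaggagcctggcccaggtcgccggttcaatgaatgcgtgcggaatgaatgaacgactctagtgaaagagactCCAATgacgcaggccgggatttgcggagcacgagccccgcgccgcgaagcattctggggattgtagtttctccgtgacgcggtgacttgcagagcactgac
PRPF38B: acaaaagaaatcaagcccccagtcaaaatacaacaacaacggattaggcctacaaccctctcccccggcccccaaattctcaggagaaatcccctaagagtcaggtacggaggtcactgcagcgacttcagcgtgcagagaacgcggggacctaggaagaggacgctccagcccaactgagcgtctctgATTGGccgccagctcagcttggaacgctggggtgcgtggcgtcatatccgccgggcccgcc
SF3B5: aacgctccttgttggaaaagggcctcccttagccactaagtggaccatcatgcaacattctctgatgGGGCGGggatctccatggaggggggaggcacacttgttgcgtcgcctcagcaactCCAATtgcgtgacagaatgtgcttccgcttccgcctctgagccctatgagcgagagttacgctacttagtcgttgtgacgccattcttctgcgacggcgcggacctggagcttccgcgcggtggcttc
The LSM10 window is chr1:36397909-36398158 on the minus strand and holds a CCAAT box (CCAAT, bound by NF-Y) 96 bases before the start. The PRPF38B window, chr1:108692060-108692309 on the plus strand, holds the same box on the opposite strand, read as ATTGG, 56 bases before the start. The SF3B5 window is chr6:144095574-144095823 on the minus strand, with a GC box (GGGCGG, bound by Sp factors) 177 bases and a CCAAT box 123 bases before the start. Over the 38 members found in that table, at the first listed start of each gene and on both strands, the ETS-family motif CCGGAAG was in 16 windows (42.1%), against 8.81% of 27305 promoters. CCAAT was also in 16 of the 38 windows (42.1%), against 33.0% of all promoters. GGGCGG was in 22 (57.9%), against 42.3%, and TATAAA was in 1, that of SNRPC (2.63%), against 11.1%. The background of 27305 promoters includes genes that are not expressed here. Expressed genes were not counted apart, so these gaps cannot be read as particular to the members. A match describes letters and not binding, and none of the motifs overlapped in the 3 windows shown.

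Levels are given as CPM, the authors' scaled read counts, which the labels call TMM-normalized. They are therefore not scaled to library size alone, and the summed CPM of all genes was 847391 to 1.10496e+06 by library. The common-total scale used below as an alternative removes this difference in sums, and is the one nearer to plain scaling by library size. Depth was estimated at 6.34 to 20.01 M reads by library (M, mega), and a single read was worth 0.0541 to 0.154 CPM. All 10 marker genes of HEK293T cells were above 1 CPM on average, with a summed level of 680.4 to 1362 CPM by library. Of 8 markers of other cell types, 7 had a value, only COL1A1 averaged 1 CPM or more, INS had no value, and their summed level was 10.65 to 23.41 CPM. The nuclear RNA MALAT1 was at 428 to 564 CPM in the controls, at 440 to 491 CPM with cytoplasmic BS2, at 1435 to 1849 CPM with nuclear BS2, at 1322 to 1443 CPM with mitochondrial BS2 and at 1040 to 1176 CPM with nucleolar BS2. The mitochondrial transcript MT-CO1 was at 4370 to 5086 CPM in the controls, 2041 to 2228 CPM with cytoplasmic, 1639 to 2172 CPM with nuclear, 11785 to 12515 CPM with mitochondrial and 4621 to 5460 CPM with nucleolar BS2. Its inputs also differed, at 3331, 1824, 4504 and 6413 CPM in non-transfected, cytoplasmic, nuclear and mitochondrial BS2 cells. So did those of MALAT1, at 179, 154, 133 and 301 CPM in the same order.

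Of the 47 members, 46 reached 1 CPM in at least 2 libraries and were tested. The exception was SNRPN, the tissue-restricted paralog of SNRPB, which was listed at 0 in 12 libraries and at no more than 0.152 CPM in the other 4. SNRPN overlaps SNURF, and SNRPE and SNRPG are among the small Sm genes with processed pseudogenes, so the division of reads among such copies is uncertain.

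Per kilobase of coding sequence, the most abundant members in the non-transfected input were Sm mRNAs: SNRPD2 at 1245 CPM per kb, SNRPG at 970.4, SNRPD1 at 795, SNRPB at 717 and SNRPE at 704. The lowest were PRPF40B at 2.62, PRPF39 at 18.9 and PRPF18 at 23.3 CPM per kb. Summed over the 47 members, the level was 8030 to 8226 CPM in the 4 inputs. It was 7189 to 7747 CPM in the non-transfected pull-downs, 7456 to 7606 CPM with cytoplasmic BS2, 5709 to 6167 CPM with nuclear BS2, 7243 to 7742 CPM with mitochondrial BS2 and 8295 CPM in both nucleolar pull-downs. The nuclear BS2 sums were below every other library, but as a share of all CPM in the library they were 0.674% to 0.676%, close to the 0.684% to 0.701% of the non-transfected pull-downs, and the summed CPM of all genes was also lowest there. CPM is a relative scale that does not give the amount of labelled RNA, and bulk samples do not show how many cells were labelled.

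Against the non-transfected pull-downs, members moved in both directions with every construct, and the families differed: Sm and LSM ring mRNAs fell or did not pass the test, and on this scale none of them rose, while PRPF mRNAs supplied most of the rises. With cytoplasmic BS2, 12 members rose and 20 fell at a limma adjusted p under 0.05, where 28.9% of all 16133 genes tested rose and 22.4% fell. With nuclear BS2, 8 rose and 28 fell, against 32.2% and 34.2% of all genes. With mitochondrial BS2, 10 rose and 20 fell, against 28.9% and 27.0%. With nucleolar BS2, 15 rose and 17 fell, against 30.1% and 35.6%, which is near the background. The members' median log2 change was -0.10, -0.42, -0.16 and -0.06 in these 4 comparisons, beside 0.02, -0.03, 0.00 and -0.08 over all genes. All 4 comparisons share the same 3 control libraries, so they are not independent of each other. For nuclear BS2 the choice of scale matters: with every library rescaled to a common CPM total, the all-gene median shifted from -0.03 to 0.22, all genes split into 7238 higher and 3658 lower in place of 5194 and 5511, the members' median moved to -0.14, and 15 members rose. On that scale 6 of the 36 nuclear calls ended, those of LSM1 (-0.05), LSM12 (-0.03), PRPF19 (-0.19), PRPF31 (-0.12), SF3A3 (-0.11) and SF3B1 (0.09). Without replicate 1 of the non-transfected pull-downs, 5 members rose with nuclear BS2.

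**Figure D1:**
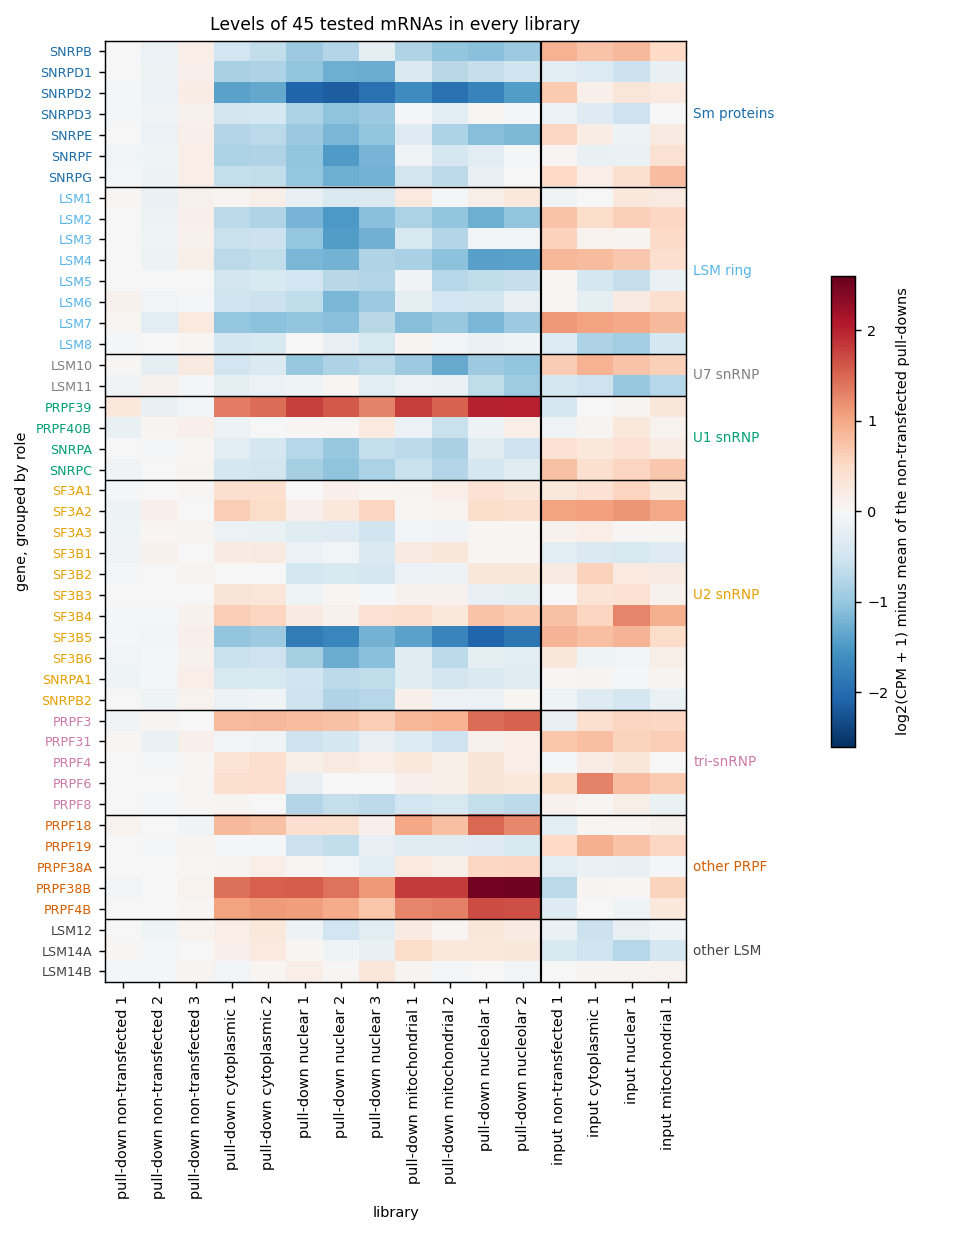
Heatmap of 45 member mRNAs (rows, grouped by role) in 16 libraries (columns), as log2(CPM + 1) minus the mean of the 3 non-transfected pull-downs. The Sm and LSM ring rows are below the controls in most BS2 pull-downs, with SNRPD2 lowest at a log2 change of -2.06 with nuclear BS2, whereas PRPF38B and PRPF39 are above them in each BS2 pull-down.

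The Sm proteins form the ring around most spliceosomal snRNAs. All 7 tested Sm mRNAs fell with cytoplasmic BS2 and with nuclear BS2, 5 fell with mitochondrial BS2, 4 fell with nucleolar BS2, and none rose in any of the 4. The cytoplasmic call of SNRPD3 ended after removal of the trend with coding length (-0.11, adjusted p = 0.169). The summed level of the Sm mRNAs was 1469 to 1787 CPM in non-transfected pull-downs, 945 to 948 CPM with cytoplasmic, 668 to 771 CPM with nuclear, 924 to 1140 CPM with mitochondrial and 1040 to 1112 CPM with nucleolar BS2. SNRPD2, which pairs with SNRPD1 in the ring, moved most. Its level was 269, 247 and 315 CPM in non-transfected controls, against 104 and 109.6 CPM with cytoplasmic BS2. It was 64.6, 61.2 and 71.1 CPM with nuclear BS2, 88.4 and 70.6 CPM with mitochondrial BS2, and 82.0 and 99.8 CPM with nucleolar BS2. Every BS2 library was below every control library. The log2 changes of SNRPD2 were -1.36 ± 0.12 (SE, adjusted p = 4.33e-07) with cytoplasmic, -2.06 ± 0.11 (5.66e-10) with nuclear, -1.79 ± 0.12 (1.98e-08) with mitochondrial and -1.60 ± 0.12 (2.64e-08) with nucleolar BS2.

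SNRPD1, its partner in the ring, was at 344, 317 and 380.2 CPM in the controls, and at 192 and 198 with cytoplasmic, 168, 142 and 142 with nuclear, 265 and 209 with mitochondrial, and 229 and 243 CPM with nucleolar BS2. These groups did not overlap the controls either, with log2 changes of -0.83, -1.20, -0.55 and -0.55. SNRPE, a subunit of the E-F-G part of the ring, was at 134, 121 and 146 CPM in the controls and fell to 61.2 and 58.7 CPM with nucleolar BS2 (log2 change -1.14 ± 0.13, adjusted p = 1.32e-06). SNRPB, which pairs with SNRPD3 in the ring, fell by 0.57, 0.66, 0.90 and 1.02 on the log2 scale with cytoplasmic, nuclear, mitochondrial and nucleolar BS2. Without replicate 2 of the cytoplasmic pull-downs its cytoplasmic change of -0.51 no longer passed. For SNRPD3, SNRPF and SNRPG the nuclear and the nucleolar BS2 groups lay apart. SNRPD3 was at 276, 266 and 305 CPM in the controls, at 159, 136 and 143 CPM with nuclear BS2 (log2 change -0.95 ± 0.08, adjusted p = 1.26e-07), and at 287 and 275 CPM with nucleolar BS2, inside the control range. SNRPF was at 146, 142 and 172 CPM in the controls, 75.2, 54.5 and 65.9 CPM with nuclear BS2 (-1.23 ± 0.12, adjusted p = 4.16e-07) and 126 and 148 CPM with nucleolar BS2 (-0.17, adjusted p = 0.293). SNRPG fell with nuclear BS2 (-1.17) and had a nucleolar log2 change of -0.11 (adjusted p = 0.395).

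The LSM ring mRNAs resembled the Sm mRNAs. Of the 8, 7 fell with cytoplasmic BS2, 7 with nuclear BS2, 6 with mitochondrial BS2 and 4 with nucleolar BS2, and none rose. After removal of the trend with coding length the cytoplasmic calls of LSM3, LSM5, LSM6 and LSM8 ended (-0.16 to -0.14), as did the nuclear call of LSM5 (-0.08) and the mitochondrial calls of LSM3 and LSM6 (-0.18 and -0.06). The summed level of the 8 was 552 to 629 CPM in the controls and 410 to 421, 317 to 372, 385 to 471 and 409 to 434 CPM with cytoplasmic, nuclear, mitochondrial and nucleolar BS2. LSM4, part of both the nuclear and the cytoplasmic ring, was at 135, 123 and 151 CPM in the controls. It was at 83.1 and 86.4 CPM with cytoplasmic BS2, 59.4, 57.3 and 78.3 CPM with nuclear BS2, 75.3 and 64.8 CPM with mitochondrial BS2 and 50.4 and 51.3 CPM with nucleolar BS2. No BS2 library reached the control range, and its log2 changes were -0.67, -1.07, -0.95 and -1.40 (adjusted p = 0.00040, 8.20e-07, 1.48e-05 and 1.45e-07). LSM7, also shared by both rings, was a low-abundance member at 28.6, 22.2 and 33.3 CPM in the controls and 11.6 to 16.4 CPM over all 9 BS2 libraries, with log2 changes of -1.03, -0.94, -1.04 and -1.06. LSM2, another shared subunit, went from 45.9, 41.3 and 50.2 CPM to 19.3, 15.6 and 20.9 CPM with nuclear BS2, a log2 change of -1.26 ± 0.12 (adjusted p = 3.67e-07).

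LSM3, LSM5 and LSM6 complete the subunits that both rings share. LSM3 was at 113, 104 and 122 CPM in the controls, 75.6 and 76.8 with cytoplasmic, 55.8, 40.8 and 46.6 with nuclear, 83.9 and 65.8 with mitochondrial, and 108 and 108 CPM with nucleolar BS2. Its nuclear BS2 change was -1.24 ± 0.11 (adjusted p = 1.66e-07), and the nucleolar libraries lay within the control range. LSM5 and LSM6 passed with cytoplasmic BS2 (-0.43 and -0.54) and mitochondrial BS2 (-0.42 and -0.37), but single libraries decided these calls. Without cytoplasmic replicate 2 neither passed with cytoplasmic BS2 (-0.47 and -0.52), LSM5 did not pass without cytoplasmic replicate 1 (-0.39), and without mitochondrial replicate 2 neither passed with mitochondrial BS2 (-0.09 and -0.24). LSM6 also failed with mitochondrial BS2 without any one of the control or cytoplasmic libraries (-0.40 to -0.31). LSM1 and LSM8 distinguish the rings: LSM1 marks the cytoplasmic decapping ring and LSM8 the nuclear U6 ring. Among the 4 tests, LSM1 passed only with nuclear BS2 (-0.32, adjusted p = 0.0111), a call that ended without control replicate 3 (-0.27) became -0.05 on the common-total scale and 0.17 after removal of the trend with coding length. In the latter fit LSM1 rose with cytoplasmic, mitochondrial and nucleolar BS2 (0.44, 0.45 and 0.56), and it also rose with these 3 after removal of the trend with transcript length (0.38, 0.34 and 0.39). Its nucleolar change of 0.22 (adjusted p = 0.107) also passed on the common-total scale (0.30) and with median-of-ratios scaling (0.33). LSM8 passed only with cytoplasmic BS2 among the same tests (-0.41, adjusted p = 0.00456), where its level was 76.1 and 78.7 CPM against 99.9 to 106 CPM. Its change with nuclear BS2 was -0.21 (adjusted p = 0.0689), which turned into a rise of 0.36 (adjusted p = 1.34e-05) after removal of the coding-length trend.

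LSM10 and LSM11 replace SNRPD1 and SNRPD2 in the U7 snRNP, which processes histone pre-mRNAs. LSM10 was at 20.2, 16.4 and 23.3 CPM in the controls and at 13.6 and 14.998, 9.48, 10.9 and 11.9, 9.79 and 7.40, and 9.85 and 9.20 CPM with cytoplasmic, nuclear, mitochondrial and nucleolar BS2. Its log2 changes were -0.44, -0.83, -1.13 and -0.98. The cytoplasmic call (adjusted p = 0.0348) was lost without either cytoplasmic library (-0.38 and -0.51) and without control replicate 1 (-0.43) or 3 (-0.33), and its change was 0.01 after removal of the coding-length trend. LSM11 was at 67.1, 77.3 and 69.7 CPM in the controls and 44.6 and 36.8 CPM with nucleolar BS2, a log2 change of -0.80 ± 0.11 (adjusted p = 1.48e-05). Its 3 other BS2 groups were at 58.4 to 73.5 CPM, and none of those changes passed. The remaining LSM proteins are not known ring subunits: LSM12, LSM14A and LSM14B, of which LSM14A takes part in P-body formation. LSM14A rose with mitochondrial BS2 (0.38, adjusted p = 0.00199) from 233 to 243 CPM to 289.9 and 331 CPM, and with nucleolar BS2 (0.28, adjusted p = 0.0111). Both calls ended after removal of the trend with transcript length (0.09 and 0.07) or coding length (0.09 and 0.10), and the nucleolar one also without nucleolar replicate 2 (0.27). LSM12 fell with nuclear BS2 (-0.31, adjusted p = 0.00741), but not without nuclear replicate 2 (-0.22), and this change became -0.03 on the common-total scale and 0.03 after removal of the coding-length trend. It passed in the opposite direction with nucleolar BS2 (0.26, adjusted p = 0.0397), but not without control replicate 1 or 2, either cytoplasmic library or either nucleolar library (0.20 to 0.30). LSM14B, at 37.8 to 49.9 CPM in all 12 pull-downs, passed in none of the 4 comparisons.

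Within the U1 snRNP, which recognises the 5′ splice site, the mRNAs of 2 structural proteins fell and that of an auxiliary factor, PRPF39, rose. SNRPA and SNRPC, the U1-A and U1-C proteins, fell with each construct, but not in every fit. After removal of the trend with transcript length neither passed with cytoplasmic BS2 (-0.12 for SNRPA and -0.13 for SNRPC). After removal of the coding-length trend SNRPA did not pass with cytoplasmic BS2 (-0.13), nor SNRPC with nucleolar BS2 (-0.07, from -0.39). SNRPC was at 150.0, 159.9 and 167 CPM in the controls and 86.8, 76.1 and 89.1 CPM with nuclear BS2, its largest change (-0.91 ± 0.08, adjusted p = 2.11e-07). SNRPA had log2 changes of -0.35, -0.79, -0.76 and -0.43 with cytoplasmic, nuclear, mitochondrial and nucleolar BS2. Its cytoplasmic call ended without cytoplasmic replicate 2 (-0.27) and its nucleolar call without nucleolar replicate 2 (-0.31). PRPF39, which takes part in alternative splicing, rose with every construct. It was at 62.8, 45.2 and 49.1 CPM in the controls, 132 and 144 with cytoplasmic, 179.8, 158 and 129 with nuclear, 183 and 152 with mitochondrial, and 209.5 and 214 CPM with nucleolar BS2. No library overlapped the controls, and the log2 changes were 1.395 ± 0.14, 1.56 ± 0.13, 1.67 ± 0.14 and 2.01 ± 0.14 (adjusted p = 1.49e-06, 5.68e-08, 1.95e-07 and 1.11e-08). PRPF40B, a WW-domain protein, was at 4.52 to 8.81 CPM in the 12 pull-downs and passed in none of the 4 comparisons.

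The U2 snRNP mRNAs were mixed. SF3B5, a very small subunit of the SF3B complex, was at 69.8, 68.7 and 79.9 CPM in the controls and at 35.0 and 37.5 CPM with cytoplasmic BS2. It was at 19.7, 21.9 and 30.2 CPM with nuclear, 26.9 and 21.3 CPM with mitochondrial and 16.6 and 19.0 CPM with nucleolar BS2. All BS2 libraries were below all controls, with log2 changes of -0.98 ± 0.16, -1.59 ± 0.14, -1.56 ± 0.16 and -1.97 ± 0.16 (adjusted p = 9.44e-05, 1.14e-07, 8.97e-07 and 3.44e-08). SF3B6, the branch-site subunit p14, fell with cytoplasmic (-0.55), nuclear (-1.08) and mitochondrial BS2 (-0.51). The last of these did not pass without mitochondrial replicate 2 (-0.32). SNRPA1, the U2-A' protein, fell by 0.42, 0.62, 0.40 and 0.35 on the log2 scale with the 4 constructs in the same order, and SNRPB2, its U2-B'' partner, fell with nuclear BS2 only among the 4 tests (-0.70, adjusted p = 1.32e-05).

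Among the other SF3A and SF3B mRNAs no change was larger than 0.71 on the log2 scale. SF3B4, which contacts pre-mRNA near the branch point, was at 60.7, 60.5 and 68.0 CPM in the controls and at 99.1 and 93.4 CPM with cytoplasmic and 106 and 102 CPM with nucleolar BS2, rising by 0.60 and 0.71 (adjusted p = 0.00014 and 1.51e-05). Its smaller nuclear and mitochondrial rises (0.24 and 0.36) did not survive the loss of some single libraries: the nuclear one ended without control replicate 1 (0.22) or 2 (0.22) or nuclear replicate 3 (0.16), and the mitochondrial one without mitochondrial replicate 1 (0.28). SF3B1, the large scaffold that is often mutated in myeloid neoplasia, was at 631, 719 and 660.3 CPM in the controls and 604, 641 and 518 CPM with nuclear BS2. Its nuclear call (-0.19, adjusted p = 0.0499) lay at the threshold, ended without any of 9 single libraries (-0.20 to -0.11), and became 0.09 on the common-total scale. Its mitochondrial rise (0.27) became -0.11 after removal of the coding-length trend and ended without either mitochondrial library (0.24 and 0.29) or control replicate 1 (0.22) or 3 (0.26). SF3B2, an RNA-binding subunit, fell with nuclear BS2 (-0.43 ± 0.06, adjusted p = 2.37e-05) and rose with nucleolar BS2 (0.30 ± 0.07, adjusted p = 0.00184), at 258 to 268 CPM and 435 to 439.7 CPM against 343 to 374 CPM in the controls. SF3B3, a scaffold paralogous to DDB1, rose with cytoplasmic BS2 (0.32) and fell with nucleolar BS2 (-0.23), the latter not passing without nucleolar replicate 2 (-0.21), on the common-total scale (-0.15) or with median-of-ratios scaling (-0.12). SF3A1 rose with cytoplasmic and nucleolar BS2 (0.43 and 0.34), and SF3A2 rose with cytoplasmic and nucleolar BS2 (0.55 and 0.43). SF3A2 also passed with nuclear BS2 (0.32), but not without control replicate 1 (0.26) or nuclear replicate 3 (0.20). SF3A3 fell with nuclear BS2 (-0.39, adjusted p = 0.000283), a call that ended on the common-total scale (-0.11, adjusted p = 0.114).

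Among the proteins of the U4/U6.U5 tri-snRNP, PRPF8 and PRPF3 moved apart. PRPF8, the largest spliceosomal protein and the scaffold of its catalytic centre, was at 454, 442 and 462 CPM in the controls and at 472 and 457 CPM with cytoplasmic BS2. It was at 267, 293 and 281 CPM with nuclear, 318 and 337 CPM with mitochondrial and 294 and 281 CPM with nucleolar BS2. The cytoplasmic libraries overlapped the controls (log2 change 0.04, adjusted p = 0.694), whereas the other 3 groups lay below, with changes of -0.69 ± 0.07, -0.46 ± 0.07 and -0.65 ± 0.07 (adjusted p = 3.02e-07, 8.48e-05 and 1.73e-06). PRPF3, a U4/U6 protein, was at 78.0, 86.7 and 83.5 CPM in the controls, 148 and 149.8 with cytoplasmic, 144, 141 and 129.9 with nuclear, 152 and 155 with mitochondrial, and 229 and 242 CPM with nucleolar BS2. The nucleolar libraries were the highest, and the log2 changes were 0.84, 0.74, 0.89 and 1.499 (adjusted p = 7.72e-07, 3.59e-07, 3.57e-07 and 5.34e-10). PRPF4, the partner of PRPF3 in the U4/U6 complex, rose by 0.40 with cytoplasmic BS2 (adjusted p = 0.000827). Its other calls were small (0.19, 0.22 and 0.25 with nuclear, mitochondrial and nucleolar BS2) and were lost without single libraries: any control library for the nuclear call (0.18 to 0.20) and nuclear replicate 2 (0.16), 6 libraries for the mitochondrial call (0.16 to 0.23), and nucleolar replicate 1 for the nucleolar one (0.17). PRPF6, which bridges U5 and U4/U6, rose with cytoplasmic BS2 (0.42), and with nucleolar BS2 (0.30) except without nucleolar replicate 1 (0.26). PRPF31, whose gene is mutated in a form of retinitis pigmentosa, fell with nuclear BS2 (-0.40) and with mitochondrial BS2 (-0.45). The first call ended on the common-total scale (-0.12, adjusted p = 0.2998) and the other without mitochondrial replicate 2 (-0.35).

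Among the remaining PRPF mRNAs, PRPF38B had the largest rise of all members with cytoplasmic, mitochondrial and nucleolar BS2, while with nuclear BS2 that of PRPF39 was larger. The summed level of these PRPF mRNAs was 659 to 692 CPM in the controls and 1108 to 1171, 893 to 1088, 1273 to 1282 and 1787 to 1805 CPM with cytoplasmic, nuclear, mitochondrial and nucleolar BS2. PRPF38B, a paralog of the B-complex protein PRPF38A, was at 146, 151 and 163 CPM in the controls. It was at 413 and 453 CPM with cytoplasmic, 457, 412 and 336 CPM with nuclear, 540.2 and 542 CPM with mitochondrial and 882 and 882 CPM with nucleolar BS2. The groups did not overlap the controls, and the nucleolar libraries stood above all others. Its log2 changes were 1.49 ± 0.11, 1.37 ± 0.09, 1.82 ± 0.11 and 2.52 ± 0.11 (adjusted p = 3.65e-08, 9.73e-09, 3.79e-09 and 4.26e-11). PRPF4B, a kinase associated with the spliceosome, was at 139, 137 and 141 CPM in the controls, 287 and 299.6 with cytoplasmic, 295, 272 and 230.5 with nuclear, 335 and 346 with mitochondrial, and 452 and 446 CPM with nucleolar BS2. It rose by 1.07, 0.92, 1.29 and 1.68 (adjusted p = 2.61e-07, 1.31e-07, 3.15e-08 and 6.52e-10). PRPF18, which acts in the second step of splicing, was at 31.0, 29.4 and 27.3 CPM in the controls and 84.2 and 71.3 CPM with nucleolar BS2, a rise of 1.38 ± 0.12. Its rises with cytoplasmic and mitochondrial BS2 were 0.80 and 0.90, and that with nuclear BS2 (0.33) ended without control replicate 3 (0.28) or nuclear replicate 2 (0.29). PRPF38A rose with nucleolar BS2 (0.55, adjusted p = 7.65e-05), at 246 and 252 CPM against 168 to 174 CPM. PRPF19, a ubiquitin ligase that heads its own spliceosomal complex, fell with nuclear (-0.47) and nucleolar BS2 (-0.37), the nuclear call ending on the common-total scale (-0.19, adjusted p = 0.0913). With mitochondrial BS2 its change was -0.31, which did not pass without either mitochondrial library (-0.305 and -0.312) or without control replicate 3 (-0.28).

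**Figure D2:**
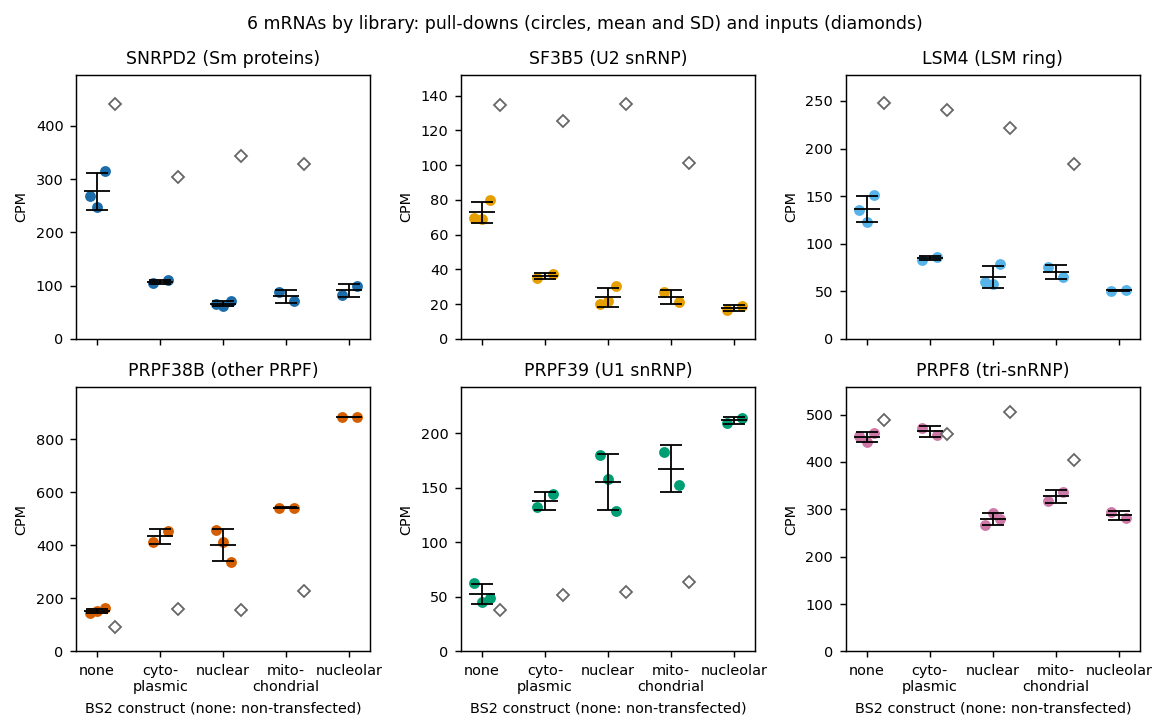
CPM (linear axis) of SNRPD2, SF3B5, LSM4, PRPF38B, PRPF39 and PRPF8 in each library: circles are pull-downs, with the group mean and SD as a line, and diamonds are the single inputs. SNRPD2, SF3B5 and LSM4 are lower in every BS2 pull-down than in the controls, PRPF38B and PRPF39 are higher, and PRPF8 overlaps the controls only with cytoplasmic BS2.

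The members that fell were mostly short. The coding sequence of the principal transcript has a median of 846 nucleotides over the 47 members and 1362 over 17358 protein-coding genes with a value. Across the 46 members, Spearman's rho between coding length and the log2 change was 0.80, 0.75, 0.63 and 0.59 with cytoplasmic, nuclear, mitochondrial and nucleolar BS2. Over 13855 protein-coding genes it was 0.29, 0.27, 0.26 and 0.20. These are descriptions across genes that share libraries, and paralogous members are not independent. With a split at 500 nucleotides, chosen after the values were seen, 18 members were shorter. None of the 18 rose, and 17, 17, 14 and 10 fell in the 4 comparisons. Among all genes tested, 28.9%, 32.2%, 28.9% and 30.1% rose and 22.4%, 34.2%, 27.0% and 35.6% fell. Of the 28 longer members, 12 rose and 3 fell with cytoplasmic BS2, 8 rose and 11 fell with nuclear BS2, 10 rose and 6 fell with mitochondrial BS2, and 15 rose and 7 fell with nucleolar BS2. PRPF8, with the longest coding sequence at 7005 nucleotides, went against this order. For the longer members with nuclear BS2 the counts are near the all-gene shares. Other protein-coding genes were not split at this length, so the counts cannot be read as particular to the members. When the trend with coding length and GC content over all protein-coding genes was removed, the members' medians were -0.11, -0.37, -0.15 and 0.06. Beside them, the medians over the 13847 genes of that fit were 0.04, -0.06, -0.02 and -0.09. In that fit 8 of the 32 cytoplasmic, 5 of the 36 nuclear, 5 of the 30 mitochondrial and 2 of the 32 nucleolar calls ended. With the trend for transcript length removed instead, 4, 2, 4 and 2 ended. Those not named so far were SF3B3 with cytoplasmic (0.12), SF3A2 with nuclear (0.15) and PRPF4 with nuclear and mitochondrial BS2 (0.10 and 0.11) for coding length. For transcript length they were LSM10 (-0.05) and SNRPA1 (-0.14) with cytoplasmic, and LSM1 (-0.006) and PRPF4 (0.12) with nuclear BS2. With mitochondrial BS2 they were PRPF4 (0.13), PRPF19 (-0.14) and SF3B1 (-0.003), and with nucleolar BS2 LSM12 (0.15). With the coding-length trend removed, some Sm and LSM ring mRNAs rose: beside LSM1, SNRPD3 rose with mitochondrial BS2 (0.27) and nucleolar BS2 (0.39), SNRPG and LSM3 with nucleolar BS2 (0.31 and 0.37), and LSM8 with nuclear, mitochondrial and nucleolar BS2 (0.36, 0.18 and 0.17). SF3B1 fell with nucleolar BS2 there (-0.22). Whether length itself sets these changes was not tested.

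**Figure D3:**
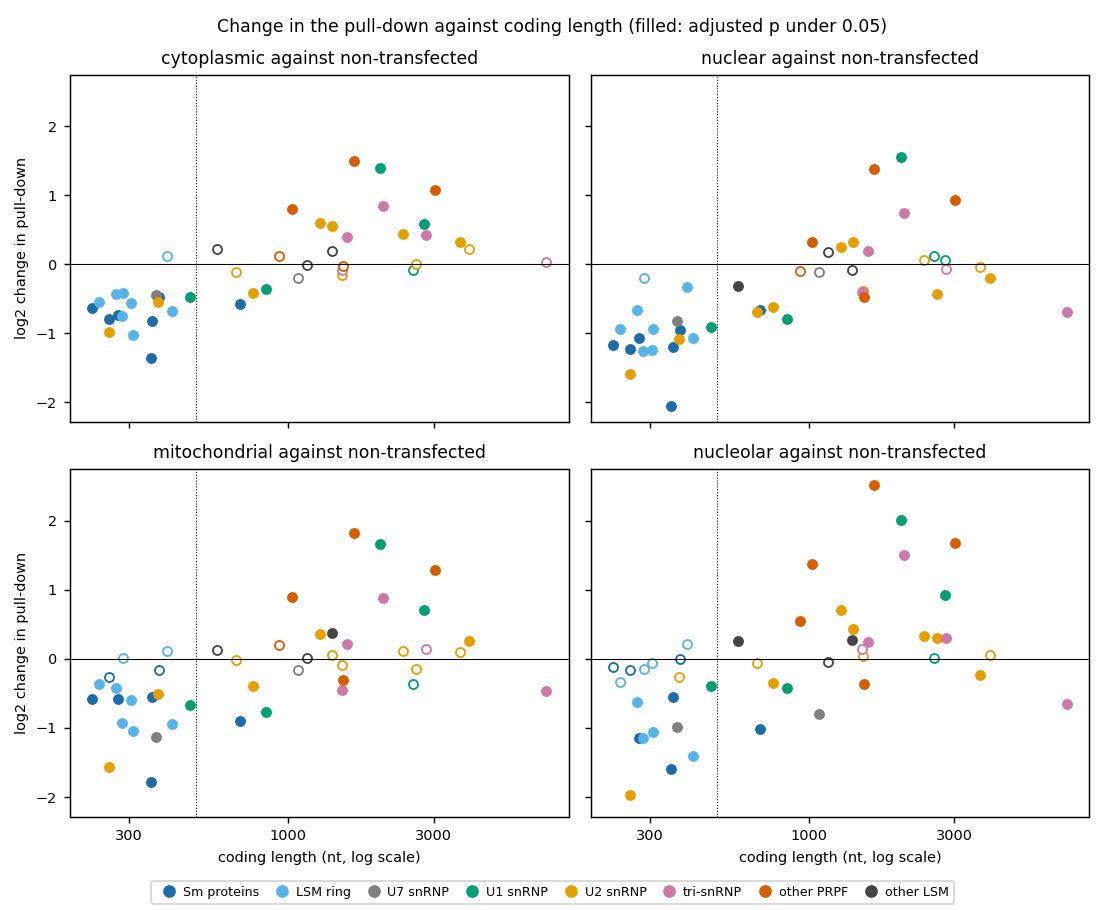
Log2 change against non-transfected pull-downs (vertical axis) and coding length in nucleotides (horizontal axis, log scale) for 46 members, 1 panel per construct, filled points having an adjusted p under 0.05 and the dotted line marking 500 nucleotides. No member left of the line rose in any panel, and the rises lie to its right.

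The constructs were also compared with each other, without the non-transfected controls. Between nuclear and cytoplasmic BS2, 28 members were lower and 0 higher in the nuclear pull-downs, against 23.2% and 10.2% of all genes tested, with a median log2 difference of -0.38 beside -0.12 over all genes. At an unadjusted p under 0.05, limma gave 34 lower and 0 higher members, but the share of all genes at that threshold was not computed. The differences were spread over the families except U7, where neither mRNA passed: 9 of 11 U2 mRNAs, 5 of 7 Sm mRNAs, 4 of 8 LSM ring mRNAs and 3 of 5 each of the U1 and tri-snRNP mRNAs were lower, as were PRPF18, PRPF19, LSM12 and LSM14A. PRPF8 differed most, at 267 to 293 CPM with nuclear and 457 to 472 CPM with cytoplasmic BS2 (-0.73 ± 0.07, adjusted p = 1.36e-05). SNRPD2 followed with a log2 difference of -0.70 ± 0.12 (adjusted p = 0.000833) and LSM3 with -0.67 ± 0.13 (adjusted p = 0.00124). Of the PRPF mRNAs that rose most with both constructs, PRPF39 had a difference of 0.16 (adjusted p = 0.412), PRPF38B of -0.12 (0.413) and PRPF4B of -0.15 (0.231). PRPF18, which also rose with both, was lower with nuclear BS2 (-0.48, adjusted p = 0.00648). This count depended on the scale. On the common-total scale 9 members were lower and 4 higher, while all genes split into 3038 higher and 936 lower in place of 1640 and 3747, their median moving from -0.12 to 0.10. Without either cytoplasmic library, 18 members were lower, and 12 of the 28 calls ended when some 1 library was left out.

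Between nucleolar and nuclear BS2, 28 members were higher and 1 lower in the nucleolar pull-downs, against 16.6% and 17.9% of all genes, with a median of 0.40 beside -0.05. LSM3 had the largest difference, 1.17 ± 0.13 (adjusted p = 7.83e-06), at 108 CPM in both nucleolar libraries and 40.8 to 55.8 CPM in the nuclear ones. PRPF38B (1.15 ± 0.11, adjusted p = 1.88e-06) and SNRPF (1.07 ± 0.14, adjusted p = 3.69e-05) followed, and SNRPG (1.06), PRPF18 (1.05) and SNRPD3 (0.95) were also higher. LSM11 was the 1 member that was lower, at -0.68 ± 0.11 (adjusted p = 0.000294). PRPF8 did not separate these groups (0.04, adjusted p = 0.732). On the common-total scale the members' median was 0.20 and that of all genes -0.22, with 1701 genes higher and 5564 lower in place of 2679 and 2888, and 6 members were lower. Without any one of nuclear replicates 1 to 3 or control replicates 2 and 3, 2 to 5 members were lower, 5 of them without nuclear replicate 1.

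Between mitochondrial and cytoplasmic BS2, 0 members were higher and 1 lower by limma, where 0.632% and 0.198% of all genes passed. At an unadjusted p under 0.05, limma gave 5 higher and 12 lower members. The share of all genes at that threshold was not computed, so these counts cannot be set against the background. The member that passed was PRPF8 (-0.50 ± 0.08, adjusted p = 0.00519), and its call ended without either cytoplasmic library (-0.48 and -0.53) or without mitochondrial replicate 1 (-0.46). Without nuclear replicate 1 or 3, which only share in the estimate of the spread, 2 members were higher, and 2 and 7 were lower. With the replicate number as a block, 5 members were lower, while all genes split into 166 higher and 313 lower in place of 102 and 32.

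**Figure D4:**
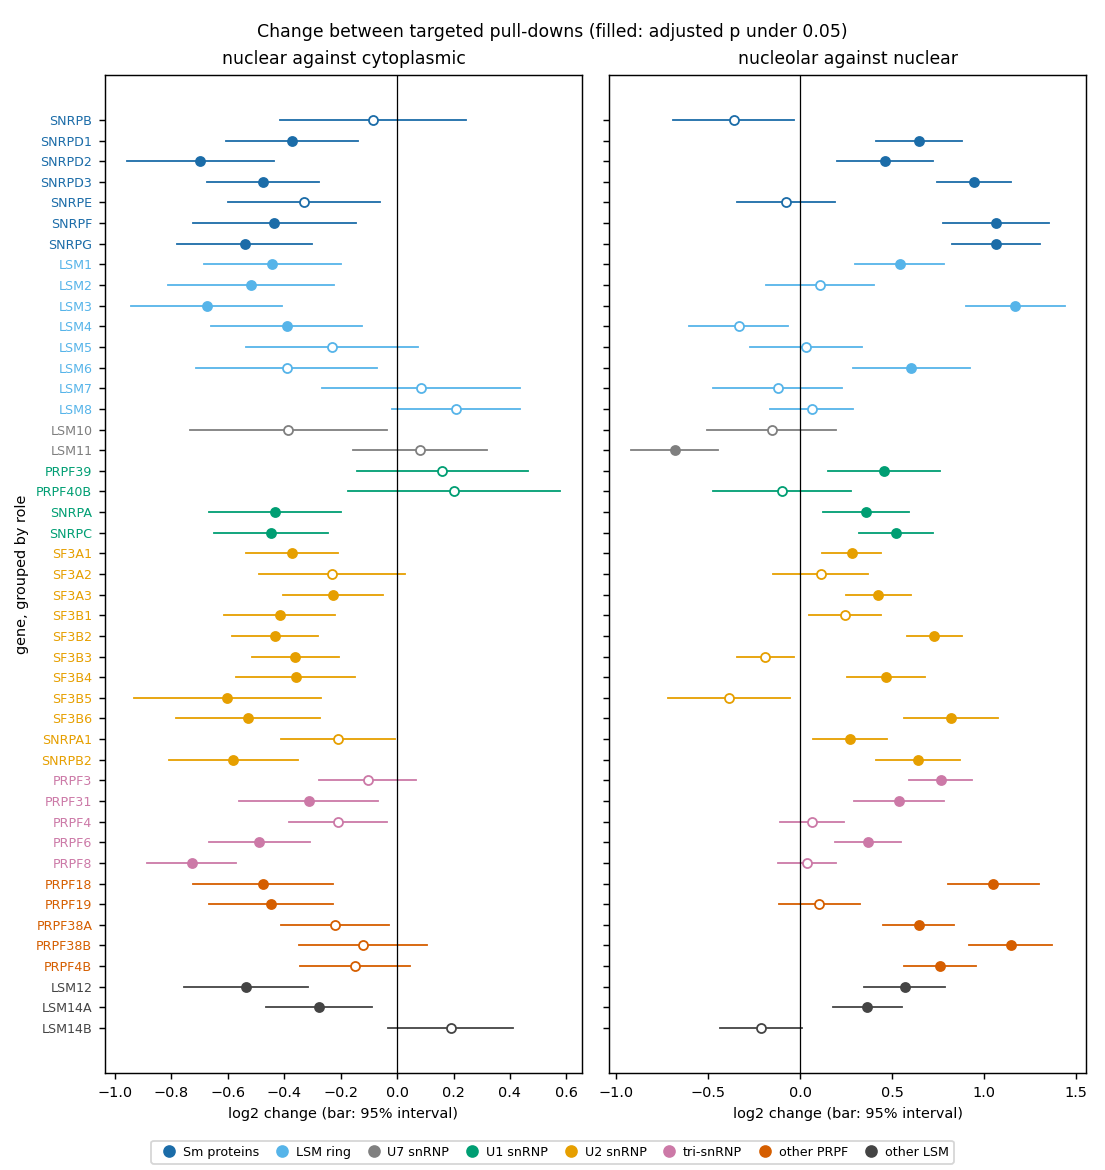
Log2 difference with its 95% interval for each of 45 members between nuclear and cytoplasmic BS2 and between nucleolar and nuclear BS2 pull-downs. PRPF8 is lowest in the first comparison at -0.73, and LSM3 and PRPF38B are highest in the second at 1.17 and 1.15.

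The inputs show the level of these mRNAs before enrichment. Pull-down and input were compared over the 4 kinds of cells that have both, with the construct as a covariate, and each single input was taken to have the same spread as pull-downs. In the pull-downs 12 members were higher and 26 lower than in the inputs, against 36.9% and 29.5% of 16693 genes tested, with a median of -0.31 beside 0.08 over all genes. SF3B5 (-1.78 ± 0.18, adjusted p = 3.14e-07), LSM7 (-1.74 ± 0.14, 9.44e-08) and SNRPD2 (-1.64 ± 0.18, 7.72e-07) were lowest, and PRPF38B (1.17 ± 0.10, 1.33e-07), PRPF39 (1.16 ± 0.14, 2.11e-06) and PRPF4B (0.86 ± 0.10, 1.41e-06) were highest. LSM8 and LSM11 went against their families: LSM8 was higher in the pull-downs (0.48) while 5 other ring mRNAs were lower, and LSM11 was higher (0.57) while LSM10 was lower (-1.32). SNRPD3 did not separate pull-down from input (-0.14, adjusted p = 0.152). Removal of the coding-length trend turned PRPF38A from 0.23 to -0.21 and SF3B1 from 0.42 to -0.28, and left 7 members higher in the pull-downs.

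The members' median ratio of pull-down to input was 0.974 in non-transfected cells, 0.847 with cytoplasmic, 0.648 with nuclear and 0.779 with mitochondrial BS2. For SNRPD2, with inputs of 441, 303, 344 and 328 CPM in non-transfected, cytoplasmic, nuclear and mitochondrial BS2 cells, the ratio was 0.628, 0.352, 0.191 and 0.243. For SF3B5, with inputs of 134, 125, 135 and 101 CPM, it was 0.542, 0.289, 0.177 and 0.238. For PRPF38B, with inputs of 93.7, 161, 156 and 228 CPM, it was 1.64, 2.69, 2.58 and 2.38. The PRPF38B input was itself 2.43 times the non-transfected one in mitochondrial BS2 cells, the highest input ratio of the 46 members there. For the called members, the side of 1 on which the input ratio lay was also counted, however small its distance from 1. Of the 12 members that rose and the 20 that fell with cytoplasmic BS2, 11 and 18 had an input ratio on the same side of 1. For nuclear BS2 these numbers were 8 of 8 and 21 of 28, and for mitochondrial BS2 8 of 10 and 15 of 20. A ratio such as the 0.99985 of SNRPA with nuclear BS2 counts as below 1. Over all 46 members, the input ratio was above 1 for 21, 21 and 24 with cytoplasmic, nuclear and mitochondrial BS2. The matching share over all genes was not computed, so these counts cannot be read as particular to the members.

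**Figure D5:**
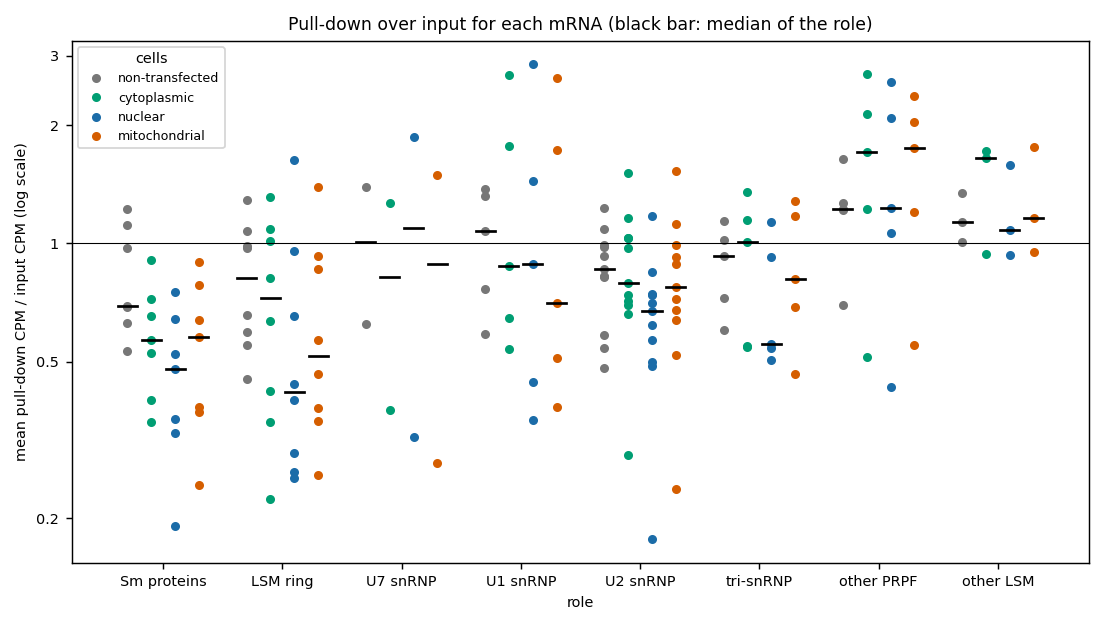
Ratio of mean pull-down CPM to the single input (log axis) for each member, grouped by role and by kind of cells, with black bars at the median. The members' median goes from 0.974 in non-transfected cells to 0.648 with nuclear BS2, and PRPF38B and PRPF39 lie above 1 in each kind of cells.

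The change between pull-downs less the change between the matching inputs was then tested as an interaction. For cytoplasmic BS2, 4 members were higher (8.70%) and 2 lower (4.35%), near the 5.74% and 2.77% of all genes. The 4 were PRPF39 (0.97 ± 0.27), SF3B4 (0.81 ± 0.18), PRPF4B (0.75 ± 0.17) and PRPF38B (0.72 ± 0.20), and the 2 were SNRPD2 (-0.82 ± 0.22) and SNRPD1 (-0.75 ± 0.20), with adjusted p from 0.0168 to 0.0387. Each of these 6 calls ended when some 1 library was left out, with 0 to 7 members higher and 0 to 8 lower over those fits. For nuclear BS2, 3 were higher (6.52%) and 20 lower (43.5%), against 7.63% and 8.94% of all genes, with a median of -0.40 beside -0.01. SNRPD2 (-1.70 ± 0.22, adjusted p = 0.000392), SF3B5 (-1.59 ± 0.27, 0.00209) and LSM2 (-1.14 ± 0.24, 0.00635) had the largest falls, and 5 Sm, 5 LSM ring and 5 U2 mRNAs were among the 20. PRPF39 (1.05), PRPF4B (0.71) and PRPF38B (0.65) were the 3 that were higher. Of these 23 calls, 8, that of PRPF38B included, were lost without some 1 library. Without control replicate 3, 13 were lower, and on the common-total scale 12 were lower and 6 higher. For mitochondrial BS2, 2 were higher (4.35%) and 5 lower (10.9%), against 6.16% and 3.40% of all genes. PRPF39 (0.94) and PRPF4B (0.68) were higher, and SNRPD2 (-1.36 ± 0.22, adjusted p = 0.0039), SF3B5 (-1.16), LSM10 (-1.09), SNRPG (-0.85) and SNRPC (-0.61) were lower. Only the SNRPD2 call passed in every fit with 1 library left out, where 1 to 4 members were higher and 1 to 9 lower. Each input is 1 library, so its own error is not measured.

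Other mRNAs of the same machinery were counted from lists of named genes. Of 48 further spliceosome mRNAs, 23 rose and 4 fell with cytoplasmic BS2, 17 rose and 16 fell with nuclear BS2, 20 rose and 8 fell with mitochondrial BS2, and 33 rose and 6 fell with nucleolar BS2, with median log2 changes of 0.26, 0.01, 0.22 and 0.47. The rises were 47.9%, 35.4%, 41.7% and 68.8% of the list beside 28.9%, 32.2%, 28.9% and 30.1% of all genes, and the falls 8.33%, 33.3%, 16.7% and 12.5% beside 22.4%, 34.2%, 27.0% and 35.6%, so that the nuclear shares were near the background. ZRSR2, a U2AF1-related factor used in minor intron splicing, had the largest rise in the list with nucleolar BS2 among those named (2.25 ± 0.10, adjusted p = 1.03e-10), followed by BUD31 (1.72 ± 0.11, adjusted p = 2.30e-09). TXNL4A, a small U5 protein, fell with nuclear BS2 (-1.15 ± 0.10, adjusted p = 1.29e-07), as did EFTUD2, the U5 GTPase (-0.73 ± 0.08, adjusted p = 9.36e-07). In the comparison of nucleolar with nuclear BS2, 28 of the 48 were higher and 1 lower, where 16.6% and 17.9% of all genes passed, and between nuclear and cytoplasmic BS2 24 were lower and 1 higher, where 23.2% and 10.2% did. Against the inputs, 19 were higher (39.6%) and 18 lower (37.5%), beside 36.9% and 29.5% of all genes.

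The SMN complex loads Sm proteins onto snRNAs. Of 13 mRNAs of this complex and of Sm assembly, 4 rose and 5 fell with cytoplasmic, 1 rose and 6 fell with nuclear, 2 rose and 6 fell with mitochondrial, and 2 rose and 7 fell with nucleolar BS2. The rises were 30.8%, 7.69%, 15.4% and 15.4% of the list, beside 28.9%, 32.2%, 28.9% and 30.1% of all genes, the cytoplasmic share being near the background. The falls were 38.5%, 46.2%, 46.2% and 53.8%, beside 22.4%, 34.2%, 27.0% and 35.6%. DDX20, the helicase Gemin3, rose by 0.94, 0.80, 0.95 and 1.25, and CLNS1A, the chaperone that holds Sm proteins before assembly, fell by 0.55, 1.00, 0.60 and 0.65 on the log2 scale. Of 10 mRNAs of the decapping machinery that works with the LSM1 ring, 7 rose and 1 fell with cytoplasmic, 5 rose and 3 fell with nuclear, 5 rose and 1 fell with mitochondrial, and 4 rose and 3 fell with nucleolar BS2. The rises were 70%, 50%, 50% and 40% of this list, beside the same 28.9%, 32.2%, 28.9% and 30.1% of all genes. With so few genes, 3 falls of 10 with nuclear and with nucleolar BS2 are near the 34.2% and 35.6% of all genes. DCP1B, a decapping activator, rose with every construct, most with cytoplasmic BS2 (0.97 ± 0.10, adjusted p = 2.25e-06) and nucleolar BS2 (1.34 ± 0.10, adjusted p = 2.78e-08). Its rises with nuclear and mitochondrial BS2 were 0.62 and 0.64. DCPS, the scavenger decapping enzyme, fell with nuclear (-0.85), mitochondrial (-0.86) and nucleolar BS2 (-0.88). DCP2, the decapping enzyme itself, fell with nucleolar BS2 (-1.16 ± 0.10, adjusted p = 1.06e-07).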

How the data were processed

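Poly(A)-captured RNA from 16 HEK293T libraries was sequenced, and the deposited table holds 1 log2 value per gene and library. Per the labels these are filtered, TMM-normalized CPM, and per the submitters' processing notes STAR 2.7.9a, Salmon 1.4.0, limma and GRCh38 were used, without a stated role or order. The shared lowest value, -2.59 (0.166 CPM), was read as 0, so CPM was 2 to the power of the log2 value minus that constant. Depth was estimated from the smallest step between low values. Only 69.1% to 84.2% of values by library were whole multiples of it (tolerance 0.01), so no count test was run, although the design had assumed plain CPM.

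A gene was tested if 2 or more libraries reached 1 CPM. The model was limma 3.58.1 (R 4.3.3) on log2(CPM + 1), with a trend and Benjamini-Hochberg adjustment over all genes, at an adjusted p of 0.05. A log2 change on this scale understates the change of low genes. The 11 comparisons used 1 fit of all pull-downs, or fits of all libraries where inputs entered. Pull-down against input had the construct as a covariate, and the interactions came from a separate fit of group means. The fit was tested on simulated data. Tables were made with Python 3.11.15, pandas 2.3.3 and SciPy 1.17.1. Coordinates, coding length and GC content came from GENCODE 29 on GRCh38, and promoters from RefSeq. Coding length is that of the principal transcript, which need not be the form expressed.

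The members, roles and lists were chosen with earlier results of these data known. Any member could be named, but the values of 1 are not reported here, although it enters the counts and medians over members. Per comparison, the 3 largest rises and falls past the threshold got full values, and up to 4 genes of each list were named by adjusted p. The alternatives were other scalings, pseudocounts of 0.25 and 5, no filter, a filter at 5 CPM, the deposited log2 values, a replicate block, removal of length and GC trends, and leaving out each pull-down. The removal by coding length was added after the data were seen.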

Additional observations from a re-analysis of the deposited data

Results flagged for a closer look

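The effect of a construct on the pull-downs differed from its effect on the inputs by the interaction term of the limma fit for some members. The falls exceeded the all-gene share most with nuclear BS2, where on the common-total scale 12 members were lower. With mitochondrial BS2 the falls, of 5 members, also exceeded that share. For cytoplasmic BS2 the pull-down change was above the input change for 4 members (8.70%) and below it for 2 (4.35%), near the 5.74% and 2.77% of all genes. With nuclear BS2 these numbers were 3 (6.52%) and 20 (43.5%), against 7.63% and 8.94%. With mitochondrial BS2 they were 2 (4.35%) and 5 (10.9%), against 6.16% and 3.40%. All 6 cytoplasmic calls, 8 of the 23 nuclear and 6 of the 7 mitochondrial ones ended when some 1 library was left out. All 3 interactions share the non-transfected pull-downs and input. Each input is a single library.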

How the results depend on the processing

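Changes of the named members that turned sign under an alternative are given here. On the common-total scale the nuclear BS2 changes against non-transfected pull-downs became 0.21 for PRPF6, 0.0863 for SF3B1 and 0.18 for PRPF38A. They became 0.24 for SF3B3 and 0.19 for LSM14A, and SF3A3 between nuclear and cytoplasmic BS2 became 0.0182. The all-gene medians of these comparisons moved from -0.03 to 0.22 and from -0.12 to 0.10 on this scale. With length and GC trends removed, SF3B1 with mitochondrial BS2 became -0.003289, LSM8 between nucleolar and nuclear BS2 became -0.19, and pull-down against input became 0.0120 for SF3A2, -0.20 for SF3B1, -0.45 for SNRPB2, -0.40 for PRPF38A and 0.27 for LSM14B. With coding-length and GC trends removed, the change against non-transfected pull-downs became 0.009375 for LSM10 with cytoplasmic BS2. With nuclear BS2 it became -0.12 for SF3A1, 0.36 for LSM8, 0.0303 for LSM12 and 0.17 for LSM1, with mitochondrial BS2 0.27 for SNRPD3 and -0.11 for SF3B1, and with nucleolar BS2 0.39 for SNRPD3, -0.22 for SF3B1, 0.17 for LSM8, 0.31 for SNRPG and 0.37 for LSM3. In the same fit LSM8 between nucleolar and nuclear BS2 became -0.19, and pull-down against input became 0.34 for SNRPD3, -0.28 for SF3B1, -0.41 for SNRPB2, -0.21 for PRPF38A and 0.28 for LSM14B. The cause of these turns in sign was not tested.

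Counts of members moved by over 1.5 times in these cases. On the common-total scale, 15 rose with nuclear BS2, 4 were higher and 9 lower between nuclear and cytoplasmic BS2, 6 were lower between nucleolar and nuclear BS2, 4 were lower in the cytoplasmic interaction, and 6 were higher and 12 lower in the nuclear one. Median-of-ratios scaling gave 2 higher between nuclear and cytoplasmic BS2 and 4 lower in the cytoplasmic interaction. Without a filter the cytoplasmic interaction had 2 higher and 0 lower, and the mitochondrial one 1 higher. The 5 CPM filter gave 3 lower between nucleolar and nuclear BS2. Removing length trends gave 1 higher between nuclear and cytoplasmic BS2, 2 higher and 4 lower between mitochondrial and cytoplasmic BS2, and 6 lower between nucleolar and nuclear BS2. Removing coding-length trends gave 2 higher, 3 higher and 5 lower, and 7 lower in those same comparisons, 7 higher in pull-down against input, 4 lower in the cytoplasmic interaction, and 1 higher and 8 lower in the mitochondrial one.

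With single pull-downs left out, members higher and lower ranged over 12 to 15 and 15 to 21 with cytoplasmic, 5 to 8 and 26 to 29 with nuclear, 7 to 11 and 15 to 21 with mitochondrial, and 12 to 15 and 16 to 19 with nucleolar BS2. The ranges were 0 to 1 and 18 to 31 between nuclear and cytoplasmic, 0 to 2 and 0 to 7 between mitochondrial and cytoplasmic, 24 to 29 and 1 to 5 between nucleolar and nuclear BS2, and 11 to 12 and 25 to 26 for pull-down against input. For the cytoplasmic, nuclear and mitochondrial interactions they were 0 to 7 and 0 to 8, 2 to 4 and 13 to 23, and 1 to 4 and 1 to 9. Inputs could not be left out, being single. Deviations of same-numbered replicates had correlations of -0.17 to 0.16, which show no clear pairing by number but cannot exclude one. The sample codes of the cytoplasmic libraries do not follow their replicate numbers, and a pairing by code was not tested. With the number as a replicate block, the mitochondrial against cytoplasmic count of lower members was 5, LSM10 with cytoplasmic BS2 (-0.35, adjusted p = 0.0714) and SF3A3 between nuclear and cytoplasmic BS2 no longer passed. Depth limits SNRPN, where 3 reads stood for 0.162 to 0.461 CPM.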
